A study of Mus musculus with 4 samples.

Results

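The ubiquitin-conjugating (E2) enzymes were examined in kidneys of Usp2 knockout mice and their wild-type littermates. Usp2 is a ubiquitin-specific protease. Members were the rows of the expression table whose single gene symbol began with Ube2, with the row of highest mean over all arrays where a symbol had several. This gave 35 genes, from 48 rows, of the 19934 genes measured. The mice were C57BL6/N males of 12 weeks, kept for 3 weeks in 12 h of light and 12 h of dark and killed at Zeitgeber time 12, which the labels give as the time of day when Usp2 expression peaks. The groups were WT (no deletion) and Usp2-KO, and no other allele or agent is named. RNA of 6 littermate pairs was combined into 2 WT and 2 Usp2-KO pools of 3 mice each, with the littermates kept in pools of the same number. Each pool was measured on 1 array, so the spread between the pools of a group is not that between animals. The labels do not say how the deletion was made or in which cells it acts. In tissue pools, fewer cells of a type and less RNA per cell cannot be told apart.

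E2 enzymes carry out the middle step of ubiquitylation. An E1 enzyme activates ubiquitin and passes it to the catalytic cysteine of an E2, and the E2 then works with an E3 ligase to place it on a protein. Several E2 enzymes set which kind of chain is built, and some carry ubiquitin-like modifiers such as NEDD8 or ISG15 in its place. A protease such as Usp2 acts in the opposite direction and removes ubiquitin. Not every Ube2 symbol is an active E2. Ube2v1 and Ube2v2 lack the catalytic cysteine and work as partners of Ube2n, and Ube2cbp is an older symbol of a protein that acts as an E3 ligase. Ube2m, an E2 of NEDD8, was not analysed here.

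Any pair of arrays correlated between 0.9971 and 0.9981 across genes, which are not independent replicates. Usp2 was at 11.63 and 11.71 in the WT pools and at 7.65 and 7.60 in the Usp2-KO pools. The kidney segment markers were Slc34a1, Lrp2, Slc5a2, Umod, Slc12a1, Slc12a3, Aqp2, Atp6v1g3 and Nphs1, all 9 of them measured. Their mean log2 level was between 11.67 and 11.77 in every pool. In 5 of the 9 (55.6%) both Usp2-KO pools lay above both WT pools, against 19.8% of all genes. In 1 both lay below, against 19.1% of all genes. By limma, 2 had an unadjusted p under 0.05, Atp6v1g3 (difference 0.25) and Nphs1 (0.19). Both were higher, as were 5.22% of all genes at that level, and neither passed the adjusted threshold. Usp2-KO pool 1 stood apart in genes of fat cells: Adipoq was at 6.28 in it and between 6.95 and 7.10 in the other pools, Cidec at 7.41 against 8.15 to 8.21, and Plin1 at 7.09 against 7.68 to 7.74, while Fabp4 and Lep lay within the range of the others. The mean of the 5 genes was 7.48 and 7.50 in the WT pools and 7.04 and 7.48 in the Usp2-KO pools. Both measured genes of pancreatic enzymes were lower in both Usp2-KO pools, with differences of -0.20 for Ctrb1 and -0.21 for Cela3b (limma unadjusted p = 0.0192 and 0.0286). The part of neighbouring tissue in the values of E2 genes was not tested. Values without Usp2-KO pool 1 are given for counts of members and for Ube2w, Ube2e1, Ube2v2, Ube2n, Ube2k and Ube2l6. The pancreatic genes were low in both Usp2-KO pools, so leaving out that pool does not remove their difference. The table gives no detection calls, so whether a low value is above background is not known. Precision is limited by the number of arrays. For a single gene, the smallest two-sided p that exact permutation of 2 against 2 pools allows is 0.333.

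No E2 gene passed in the comparison of Usp2-KO with WT kidney (limma, Benjamini-Hochberg adjusted p under 0.05 over all 19934 genes). The smallest adjusted p of a member was 0.391. Over all genes 1 passed, 0.00502% of those tested, and that gene was Usp2. When littermate pools were blocked, 153 genes passed, 0.768% of those tested, and again none of the 35 members did, at a smallest adjusted p of 0.0993. A gene can pass that fit although its pairs differ much in size. Adipoq passed with littermate differences of -0.83 and -0.12 (limma with block, adjusted p = 0.0038), and Cidec with -0.80 and -0.04 (adjusted p = 0.017). At an unadjusted p under 0.05, 4 members were counted (11.4%), 3 higher and 1 lower in Usp2-KO kidney. The same held for 9.11% of all genes, 5.22% higher and 3.88% lower, so the share of members was near the background. When littermate pools were blocked, it was 5 members (14.3%) and 9.22% of all genes. Without Usp2-KO pool 1 it was also 5 members (14.3%), against 10.2% of all genes, and none passed after adjustment. The differences were small: 21 of the 35 members differed by less than 0.1 on the log2 scale and 3 by 0.2 or more. The 95% confidence intervals of 33 members lay within -0.5 and 0.5. Those of Ube2v2, which reached up to 0.52, and Ube2l6, which reached down to -0.52, did not.

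Of the 35 members, 26 had a difference above 0 (74.3%, against 47.4% of all genes) and 9 had one below. The count above 0 was 22 (62.9%) with quantile normalization repeated, against 46.5% of all genes. It was 30 (85.7%) with arrays centred on their medians, against 52.4% of all genes. Without Usp2-KO pool 1 it was 24, and the share of all genes is not given here. The median difference was 0.04 for the members (0.035 before rounding) and -0.01 for all genes (-0.006). In 14 members (40%) both Usp2-KO pools lay above both WT pools, against 19.8% of all genes, and in 2 members (5.71%) both lay below, against 19.1%. The 2 were Ube2l6 and Ube2g2, and in the other 19 members the groups overlapped. With quantile normalization repeated these counts were 13 above and 4 below (37.1% and 11.4%), against 18.8% and 21.7% of all genes. With arrays centred on their medians they were 16 and 2 (45.7% and 5.71%), against 22.8% and 15.8% of all genes. Within littermates, 16 members were higher in both pairs (26.1% of all genes were) and 3 were lower in both (25.3% of all genes). The pool 1 littermates gave a median of 0.08 with 29 members higher, and the pool 2 littermates gave 0.01 with 19 higher. The values of all genes within a single pair are not given here, so these have no background. In 16 members the pairs did not go the same way. No test was made of the list as a whole.

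**Figure D1:**
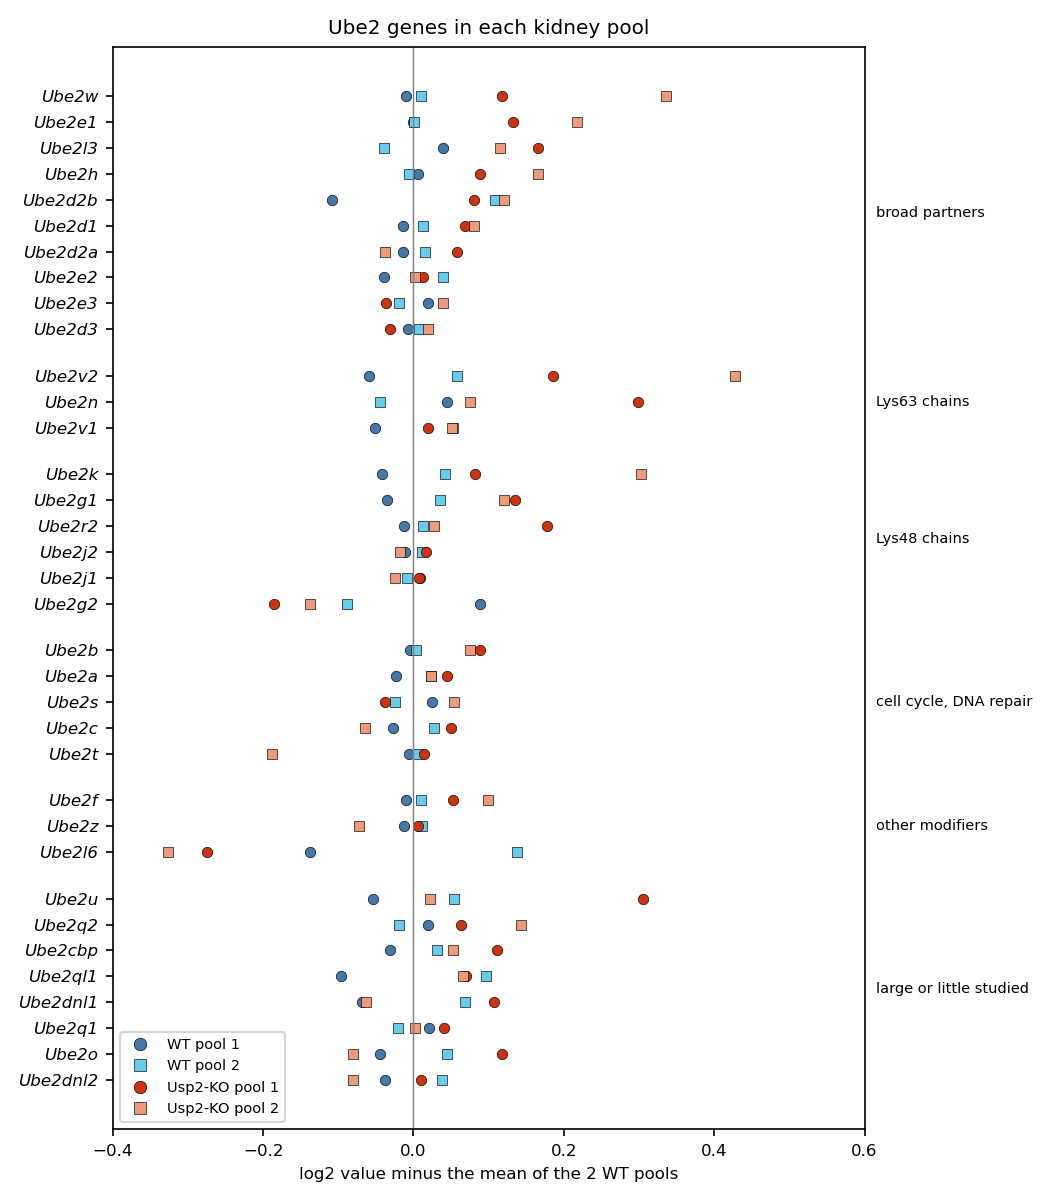
Each row is 1 Ube2 gene, grouped by role, and each point is 1 pool: its log2 value minus the mean of the 2 WT pools (circles pool 1, squares pool 2, blue WT, red Usp2-KO). Both Usp2-KO points lie right of both WT points in 14 of the 35 genes and left of both in 2, Ube2l6 and Ube2g2.

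**Figure D2:**
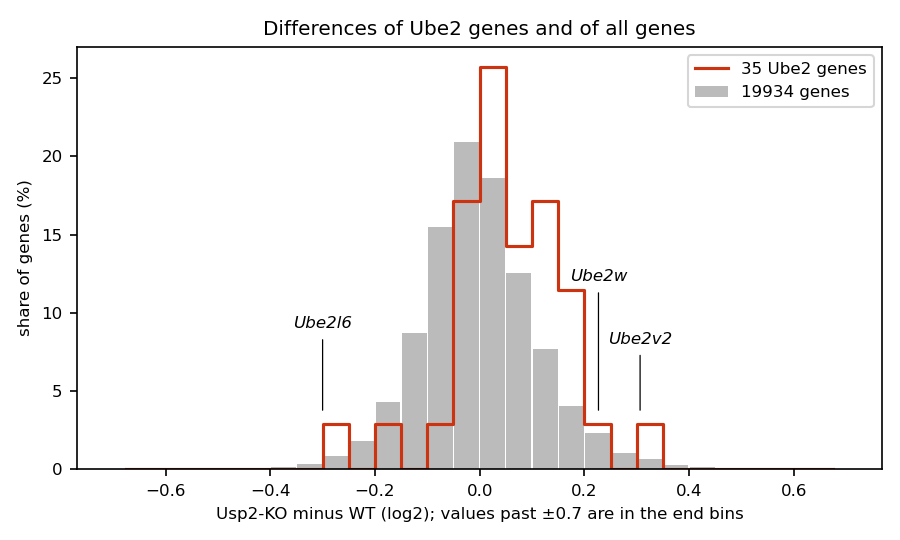
The x axis gives the log2 difference of Usp2-KO minus WT and the y axis the share of genes in percent, for all 19934 genes (grey bars) and for the 35 Ube2 genes (red line). The Ube2 genes have a median of 0.04 and all genes one of -0.01, and 3 Ube2 genes, which are named, lie at 0.2 or more from 0.

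Longer E2 genes tended to have the higher differences. Across the 35 members Spearman's rho between the difference and gene length was 0.568, and across 19852 genes it was 0.19. These are descriptions across genes of the same 4 arrays, not tests. The members were longer than other genes, with a median length of 30497 bases against 17741.5 bases. The median was 53424 bases for the 14 members whose Usp2-KO pools lay above the WT pools and 17934 bases for the 19 whose groups overlapped. Ube2e2 is the longest member, and its difference was 0.01. With the trend of the difference on gene length over all genes removed, 26 members were above 0 and the members' median was 0.06, against 0.035 with the trend left in. What ties length to the difference was not tested.

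**Figure D3:**
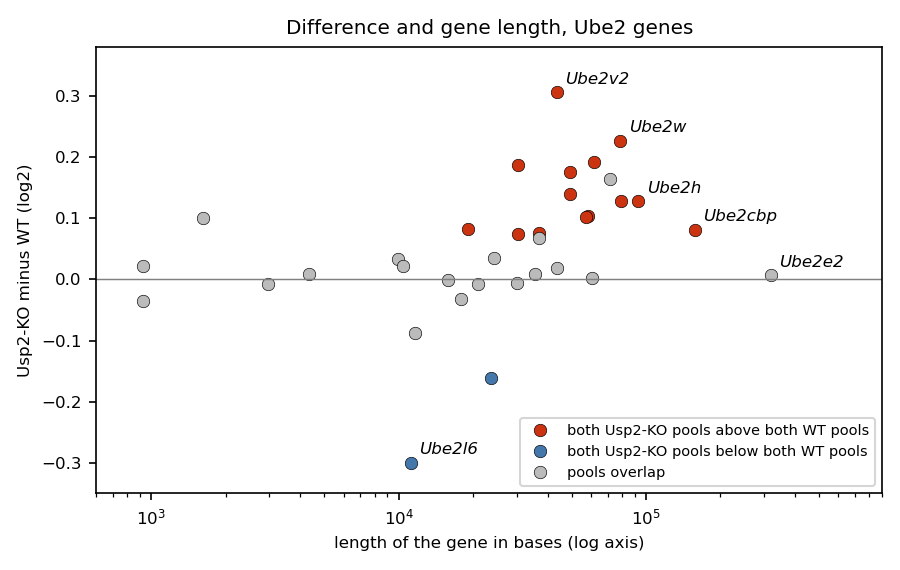
Each point is 1 of the 35 Ube2 genes, with the length of the gene in bases on a log x axis and the log2 difference of Usp2-KO minus WT on the y axis. The genes whose Usp2-KO pools lie above both WT pools (red) have a median length of 53424 bases and those whose pools overlap (grey) one of 17934 bases.

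The first group by role holds mainly E2 enzymes that work with many E3 ligases, often to attach the first ubiquitin to a protein. Of its 10 genes, 2 had an unadjusted p under 0.05, both higher in Usp2-KO kidney (5.22% of all genes were), and in 5 the Usp2-KO pools lay above the WT pools (19.8% of all genes). Ube2w, which attaches ubiquitin to the amino end of proteins, had log2 values of 6.81 and 6.82 in the WT pools and 6.93 and 7.15 in the Usp2-KO pools. The groups did not overlap, and the knockout pools were themselves 0.22 apart, with pool 2 the higher. The difference was 0.23 (SE 0.09, limma unadjusted p = 0.0283, adjusted p = 0.482), and it was 0.12 without Usp2-KO pool 2, while leaving out Usp2-KO pool 1 gave 0.34. Ube2e1 had 8.89 in both WT pools, and 9.02 and 9.11 in the Usp2-KO pools. Here the WT pools were nearly equal and both knockout pools stood above them. The difference was 0.18 on the log2 scale, or 1.13-fold (SE 0.07, unadjusted p = 0.0388, adjusted p = 0.522), and 0.22 without Usp2-KO pool 1.

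Ube2l3 serves HECT and RBR ligases, which take the ubiquitin onto a cysteine of their own. Its values were 10.98 and 10.90 in the WT pools and 11.11 and 11.06 in the Usp2-KO pools, without overlap, and its difference was 0.14 (95% confidence interval -0.02 to 0.30). Ube2h was at 9.89 and 9.88 in WT and at 9.98 and 10.05 in Usp2-KO kidney, a difference of 0.13 (interval -0.04 to 0.29). Ube2d1 lay above as well, at 10.87 and 10.90 against 10.95 and 10.96. The other Ube2d and Ube2e genes overlapped between genotypes. Ube2d3, whose row held the highest value of all members, was at 13.23, 13.25, 13.21 and 13.26 in WT pool 1, WT pool 2, Usp2-KO pool 1 and Usp2-KO pool 2. Its difference of -0.01 had an interval of -0.17 to 0.15. Ube2d2a (0.01), Ube2e2 (0.01) and Ube2e3 (0.00) were as close to 0, and Ube2d2b, at log2 values of 4.27 to 4.50, differed by 0.10.

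The second group builds K63-linked ubiquitin chains, which serve in signalling and DNA repair rather than in degradation. Ube2n is the enzyme and Ube2v1 and Ube2v2 are its partners. Ube2v2 had the smallest p of all 35 members. It was at 8.02 and 8.13 in the WT pools and at 8.26 and 8.50 in the Usp2-KO pools. Both knockout pools were above both WT pools, and pool 2 was again the higher knockout. The difference was 0.31, or 1.24-fold (SE 0.09, 95% confidence interval 0.09 to 0.52, limma unadjusted p = 0.0102, adjusted p = 0.391). The littermate pools differed by 0.24 and 0.37, and the value was between 0.19 and 0.43 when any 1 pool was left out, the higher value being that without Usp2-KO pool 1. Ube2n was at 9.37 and 9.28 in WT and at 9.62 and 9.39 in Usp2-KO kidney. Its groups were separated by 0.03 at the nearest pools, and pool 1 was the higher knockout. The difference was 0.19 (SE 0.09, adjusted p = 0.578), and 0.075 without Usp2-KO pool 1. Ube2v1 overlapped, with 11.50 and 11.61 in WT and 11.57 and 11.61 in Usp2-KO kidney.

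The third group builds K48-linked chains, the signal for degradation by the proteasome. Its 6 genes did not share a direction: 3 had differences above 0 and 3 below (5 and 1 with arrays centred on their medians), and none had an unadjusted p under 0.05. Ube2k, which extends such chains, was at 9.95 and 10.04 in WT and at 10.07 and 10.29 in Usp2-KO kidney, a difference of 0.19 (SE 0.09, unadjusted p = 0.0599, adjusted p = 0.566). It was 0.08 without Usp2-KO pool 2, while leaving out Usp2-KO pool 1 gave 0.30. Ube2g1 was at 9.31 and 9.38 in WT and at 9.48 and 9.46 in Usp2-KO kidney, and Ube2r2, which works with cullin ligases, was at 10.62 and 10.65 against 10.81 and 10.66. Ube2g2 went the other way. It serves the removal of misfolded proteins from the endoplasmic reticulum and was at 9.56 and 9.38 in WT and at 9.29 and 9.33 in Usp2-KO kidney. The knockout pools lay below both WT pools, with WT pool 1 the furthest from the rest, and the difference was -0.16 (SE 0.08, adjusted p = 0.6), or -0.07 without WT pool 1. Ube2j1 and Ube2j2 are anchored in the membrane of the endoplasmic reticulum and serve the same pathway. Their differences were -0.01 and 0.00, with intervals of -0.17 to 0.15 and -0.16 to 0.16.

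Among E2 enzymes of the cell cycle and of DNA repair, the groups overlapped in 4 of 5. Over all genes, the Usp2-KO pools lay above the WT pools in 19.8%, below them in 19.1%, and overlapped in the rest. Ube2c and Ube2s start and extend the chains that the anaphase-promoting complex places in mitosis. Ube2c was at 7.17 and 7.22 in WT and 7.25 and 7.13 in Usp2-KO kidney, and Ube2s differed by 0.01. Ube2t, of the Fanconi anaemia pathway, had low values of 4.72 and 4.73 in WT and 4.74 and 4.54 in Usp2-KO kidney, and the last pool alone was low. Of 9 measured markers of dividing cells, 0 had an unadjusted p under 0.05 in either direction, and their mean log2 level was 6.69 and 6.67 in the WT pools and 6.68 and 6.58 in the Usp2-KO pools. Ube2a and Ube2b, which act with Rad18 in the tolerance of DNA damage, differed by 0.03 and 0.08. In Ube2b the WT pools were at 10.36 and 10.37 and the Usp2-KO pools at 10.45 and 10.44, without overlap.

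The next 3 genes of the measured set carry or receive other modifiers. Ube2l6, the E2 of ISG15 and an interferon-induced gene, had the lowest difference of all members. It was at 8.49 and 8.77 in the WT pools and at 8.36 and 8.31 in the Usp2-KO pools. The knockout pools were close to each other and below both WT pools, while the WT pools were apart by 0.28. The difference was -0.30, or 1.23-fold lower (SE 0.10, 95% confidence interval -0.52 to -0.08, limma unadjusted p = 0.0126, adjusted p = 0.402). It was -0.44 without WT pool 1, -0.16 without WT pool 2 and -0.33 without Usp2-KO pool 1. Ube2f, an E2 of NEDD8, was at 8.33 and 8.35 in WT and at 8.39 and 8.44 in Usp2-KO kidney, a difference of 0.08. Ube2z, which receives ubiquitin from Uba6, overlapped, with a difference of -0.03.

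Ube2l6 was set beside other interferon response genes, 6 of 7 of which were measured (Isg15 was not analysed here). None of the 6 had an unadjusted p under 0.05 (9.11% of all genes did). A difference below 0 was found in 4 of them, and in 10450 of all 19934 genes. Ifit1, an RNA-binding antiviral protein, was at 6.75 and 6.996 in WT and at 6.78 and 6.55 in Usp2-KO kidney, a difference of -0.21. Usp18, which removes ISG15, was at 8.08 and 8.31 against 8.16 and 8.09. In Ube2l6, Ifit1, Usp18, Ifit3 and Rsad2 the highest of the 4 pools was WT pool 2, though in Rsad2 by little (7.98 in both WT pools). In Irf7 and Oas1a, which differed by 0.02 and 0.09, WT pool 2 was the lowest. The mean of the 6 genes was 7.87 and 7.88 in the WT pools and 7.86 and 7.79 in the Usp2-KO pools. Of 6 immune cell markers 5 had a difference below 0, against 10450 of all 19934 genes. With either other scaling of the arrays 4 of the 6 did. Cd3e, a subunit of the T cell receptor complex, was at 8.15 in both WT pools and at 7.91 and 7.94 in the Usp2-KO pools. Its difference was -0.23 (limma unadjusted p = 0.00965, adjusted p = 0.385). The mean of the 6 markers was 7.19 and 7.25 in WT and 7.19 and 7.17 in Usp2-KO kidney. The part of interferon or of immune cells in the value of Ube2l6 was not tested.

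**Figure D4:**
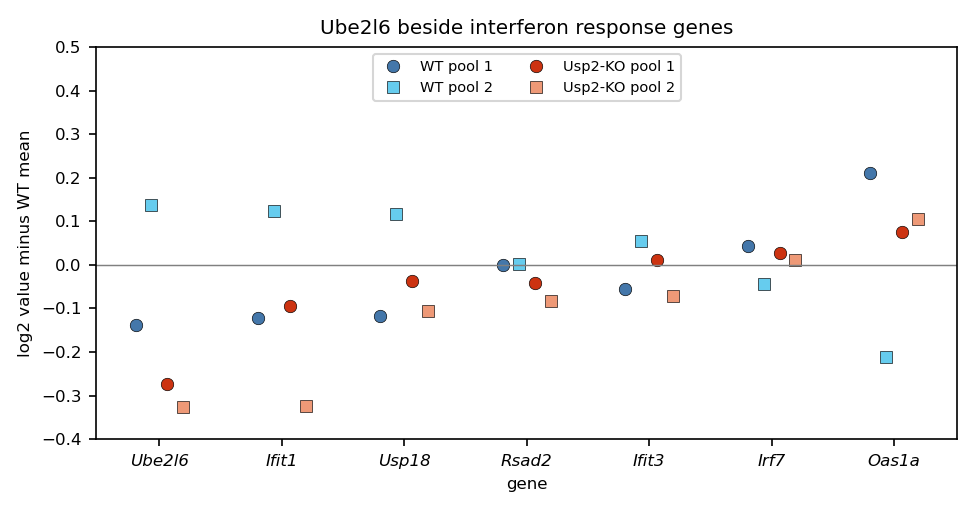
For Ube2l6 and 6 interferon response genes (x axis), each point is 1 pool, given as its log2 value minus the mean of the 2 WT pools (y axis). WT pool 2 is the highest pool for Ube2l6, Ifit1, Usp18, Ifit3 and Rsad2 and the lowest for Irf7 and Oas1a, and both Usp2-KO pools are below both WT pools for Ube2l6 and Rsad2.

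Promoter sequences, of 250 bases before to 50 after the start of transcription, were available from RefSeq (GRCm38.p6) for 29 of the 35 members, as 38 sequences. They were searched on both strands for the core of the interferon-stimulated response element (GAAA and GAAA with 2 bases between them), because of Ube2l6, and for the E-box CACGTG, the site of the circadian activators, because the kidneys were taken at the daily peak of Usp2. A match is a description of the letters, not a bound site. The interferon core was found in 1 of 38 member promoters (2.63%, against 3.44% of 32851 promoters), that of Ube2dnl1, and not in this window of Ube2l6. The E-box was found in 3 member promoters (7.89%, against 7.15%), those of Ube2b, Ube2cbp and Ube2q1. RefSeq gives Ube2b 2 promoters. One of them holds 3 E-boxes, which begin at bases -107, -76 and -10 from its start, and the other holds 0. Below are the promoter of Ube2l6, the member of lowest difference (chr2:84798578-84798877, plus strand), and the promoter of Ube2b that has the 3 E-boxes, in capitals (chr11:52000737-52001036, minus strand). Both read 5′ to 3′ along the gene, and in that of Ube2l6 nothing is in capitals because no searched motif is in it.
Ube2l6: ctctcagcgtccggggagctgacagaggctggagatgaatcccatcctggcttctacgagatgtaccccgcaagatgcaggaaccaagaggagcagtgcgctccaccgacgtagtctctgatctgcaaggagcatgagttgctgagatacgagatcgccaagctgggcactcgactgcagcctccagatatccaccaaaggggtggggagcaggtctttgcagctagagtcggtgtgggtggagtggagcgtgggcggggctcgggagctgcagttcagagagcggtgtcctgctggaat
Ube2b: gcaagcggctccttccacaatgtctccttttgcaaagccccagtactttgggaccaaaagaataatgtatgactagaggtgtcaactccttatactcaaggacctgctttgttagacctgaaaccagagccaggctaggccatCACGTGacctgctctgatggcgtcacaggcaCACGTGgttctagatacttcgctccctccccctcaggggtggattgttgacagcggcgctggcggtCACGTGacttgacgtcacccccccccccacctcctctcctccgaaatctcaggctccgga

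The remaining 8 members are large enzymes or ones less studied, and none had an unadjusted p under 0.05. Ube2q2 was at 9.07 and 9.03 in WT and 9.11 and 9.19 in Usp2-KO kidney, and Ube2cbp at 7.88 and 7.94 against 8.02 and 7.96. Both lie on chromosome 9 like Usp2, 146 and 395 measured genes away from it. Ube2u was at 6.36, 6.47 and 6.44 in all pools but Usp2-KO pool 1, which was at 6.72. Ube2o, a large enzyme that acts as E2 and E3 at once, differed by 0.02 and Ube2q1 by 0.02. Ube2ql1 differed by 0.07, with WT pool 1 at 7.40 and the other 3 pools between 7.56 and 7.59. The rows of Ube2dnl1 and Ube2dnl2 lay between 4.15 and 4.50 in all pools and overlapped between genotypes. Levels of different rows are not set against each other, since a row's value also depends on its probes.

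For 9 members the table holds several rows, and the row that was used is open to doubt. Row numbers of this array run along the genome: 99.9% of 18802 placed genes with 1 row stood among rows of their own chromosome (by the 5 named rows on either side). In all 9 members the row of highest mean stood among genes of another chromosome, and another row stood among genes of the member's own. Over all genes that have rows of both kinds, 255 of 401 (63.6%) had their highest mean off their own chromosome. RefSeq lists processed copies of some E2 genes, such as Ube2l3-ps1 and Ube2n-ps1, and rows of near-identical sequence can share signal, so the assignment of these rows is uncertain. In 8 of the 9 the row beside genes of the member's own chromosome had the higher difference. Only in Ube2l3 was the gap larger than the SE of that row (0.27 against 0.14, SE 0.08). In Ube2s, for example, it was 0.013 against 0.008 (SE 0.07). How often this held among the 401 genes is not given here.

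The size of the difference depended on the row for some of them. The own-chromosome row of Ube2l3 was at 10.45 and 10.32 in WT and at 10.60 and 10.72 in Usp2-KO kidney. Its difference was 0.27 (SE 0.08, limma unadjusted p = 0.00851, adjusted p = 0.38), against 0.14 in the row of highest mean. That of Ube2v2 was at 7.06 and 7.10 in WT and at 7.32 and 7.68 in Usp2-KO kidney, a difference of 0.42 (SE 0.11, unadjusted p = 0.00471, adjusted p = 0.336) against 0.31. Ube2h differed by 0.17 (unadjusted p = 0.0406 by limma) against 0.13, and Ube2q2 by 0.16 against 0.10. The own-chromosome row of Ube2v1 was low and uneven, at 5.41 and 6.20 in WT and 6.39 and 5.67 in Usp2-KO kidney. Ube2n gave 0.18 against 0.19. In these rows Ube2d2a differed by 0.03, Ube2d3 by 0.03 and Ube2s by 0.01. With these rows 6 members (17.1%) had an unadjusted p under 0.05, against 9.12% of all genes, and none passed after adjustment. Another 4 rows carry a Ube2 symbol together with that of a predicted gene and were left out. They differed by 0.02 (Ube2f), 0.12 (Ube2j2), 0.11 and 0.16 (both Ube2l3).

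**Figure D5:**
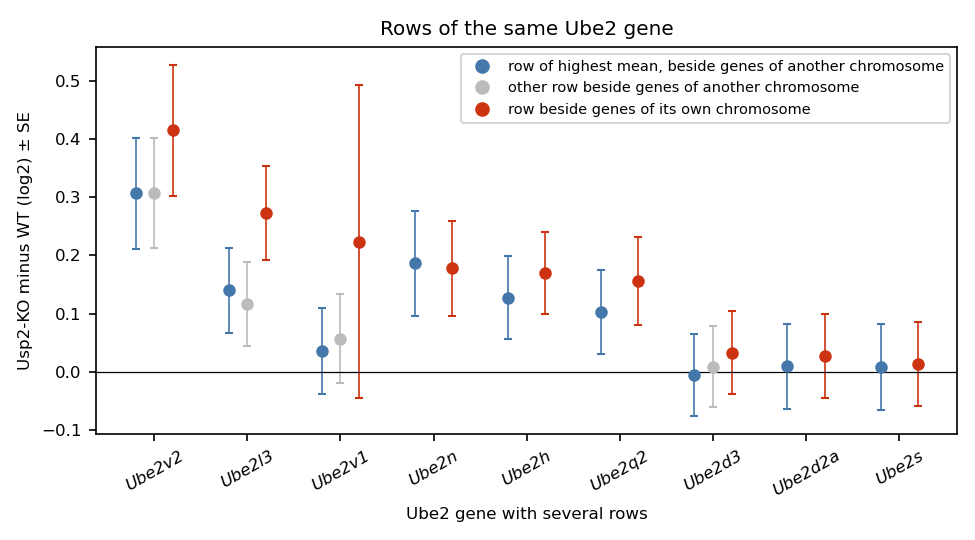
For the 9 Ube2 genes with several rows (x axis), each point is 1 row and gives its log2 difference of Usp2-KO minus WT with the standard error from limma over all rows (y axis). The own-chromosome row (red) lies above the row of highest mean (blue) in 8 of 9 genes and not in Ube2n. Only in Ube2l3, with 0.27 against 0.14, is the gap larger than the standard error of the own-chromosome row.

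The steps before and after the E2 enzymes were read from lists of named genes. Of 6 measured E1 enzymes, 2 had an unadjusted p under 0.05, both higher in Usp2-KO kidney (5.22% of all genes were), and none passed after adjustment. Uba6, the E1 that charges Ube2z, was at 8.27 and 8.23 in WT and at 8.40 and 8.52 in Usp2-KO kidney, a difference of 0.21 (SE 0.08, limma adjusted p = 0.458). Nae1 and Uba3 together form the E1 of NEDD8. Nae1 was at 8.59 and 8.57 in WT and 8.70 and 8.83 in Usp2-KO kidney (0.19), and Uba3 at 8.67 and 8.74 in WT and 8.78 and 9.04 in Usp2-KO kidney (0.20). Uba1, the main E1 of ubiquitin, was not analysed here.

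Of 8 measured E2 enzymes under other symbols, 1 had an unadjusted p under 0.05, where 9.11% of all genes did. This was Atg3, the E2 of the autophagy modifiers, at 8.91 and 8.75 in WT and at 9.10 and 9.20 in Usp2-KO kidney. Its difference of 0.32 (SE 0.08, limma unadjusted p = 0.004, adjusted p = 0.326) was of the size of that of Ube2v2. Tsg101, an inactive E2 variant of the endosomal sorting machinery, differed by 0.10, and Atg10, the E2 of Atg12, by 0.13. Of 8 measured precursors of ubiquitin and its relatives, 1 was also at that level. Ufm1, a ubiquitin-like modifier, was at 10.21 and 10.17 in WT and at 10.40 and 10.43 in Usp2-KO kidney, a difference of 0.22 (SE 0.07, limma adjusted p = 0.393). Nedd8 was at 8.57 and 8.61 in WT and 8.70 and 8.78 in Usp2-KO kidney (0.14), and Fau, which encodes a ubiquitin-like protein fused to a ribosomal one, differed by -0.09.

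Of 34 measured E3 ligases and cofactors that work with these E2 enzymes, 2 had an unadjusted p under 0.05 (both higher, as were 5.22% of all genes). Dcun1d5, which helps NEDD8 onto cullins, was at 7.42 and 7.36 in WT and at 7.62 and 7.58 in Usp2-KO kidney, a difference of 0.21 (SE 0.07, limma adjusted p = 0.435). Arih1, an RBR ligase that takes ubiquitin from Ube2l3, was at 10.66 and 10.65 in WT and at 10.80 and 10.85 in Usp2-KO kidney, a difference of 0.17 (SE 0.07, limma adjusted p = 0.522). Dcun1d1 overlapped, at 7.45 and 7.61 in WT and at 7.58 and 8.01 in Usp2-KO kidney. In 10 of the 34 the Usp2-KO pools lay above the WT pools (29.4% of the list), and in 0 below, against 19.8% and 19.1% of all genes. With quantile normalization repeated these were 7 above (20.6%) and 5 below (14.7%), against 18.8% and 21.7% of all genes.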

How the data were processed

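Kidney RNA of 2 WT and 2 Usp2-KO pools (300 ng each, per the labels' protocols) was measured on a whole-transcript array. The deposited log2 values come from RMA, run by the authors according to the submitters' processing notes. This method makes the distributions of arrays equal, so a shift common to most genes would not be seen. Its version is not given in the sources used here. Of 28270 rows, 21780 had exactly 1 symbol, 1617 had several and 4873 had none in the platform's annotation. The row of highest mean was kept for each of 19934 genes, with no filter on signal.

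The difference of Usp2-KO from WT was estimated by limma (version 3.58.1, R version 4.3.3, eBayes with 6.87 prior degrees of freedom), with p-values adjusted by Benjamini-Hochberg over all genes. The fit was also run on simulated pools without pairing. Recovery was required there only for differences far larger than those of the E2 genes. How often differences of the size of theirs were recovered is not given here. A second fit took pool number as a block, because the series' design text says that littermates stayed paired between pools. It rests on a prior of 90.6 degrees of freedom. Deviations of same-numbered pools correlated at -0.121 across genes.

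The members and lists were chosen with earlier results of these data known. By rule, full values are given for the 10 members of smallest p, and up to 3 genes of each pathway list are named. Other values per pool were chosen after they were seen. Gene lengths, chromosomes and promoters are those of GRCm38.p6, since the array files name no build. No array was left out. Figures were drawn with matplotlib 3.10.9.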

Additional observations from a re-analysis of the deposited data

How the results depend on the processing

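Under all 16 settings tried, no E2 gene passed the adjusted threshold, and the smallest adjusted p of any member was 0.0993, with the littermate block. The 10 named members kept their direction in all 129 values computed, but many of these could not have reversed. The littermate block, the changes in eBayes and the filters on signal leave a difference as it was. In all 10 the groups do not overlap, so leaving out a pool also keeps the direction. The count of all genes that passed was 1, and it was 153 with the littermate block, 18 with an intensity trend in eBayes, 7 with genes above the median signal, 7 with a mean log2 value of at least 6, 2 at an adjusted p under 0.10, and 1 to 2 with a pool left out. The 4 members at an unadjusted p under 0.05 (11.4%, against 9.11% of all genes) became 7 with an intensity trend (20%, against 9.62%). With every row on its own, 8 of 48 member rows (16.7%) were at that level, against 9.36% of 21780 rows. The cause of these changes was not tested, except that every row on its own counts more rows. The 26 members above 0 were 20 to 30 with a pool left out. With a pool left out, the members' median ranged from 0.021 (without WT pool 1, all genes -0.009) to 0.0855 (without WT pool 2, all genes 0.0025). With the littermate block it was 0.035, as without it, and 5 members (14.3%, against 9.22% of all genes) had an unadjusted p under 0.05. Another 3 choices were made after seeing the data: crossed pool numbers, the own-chromosome row and the length trend. With pool numbers crossed, as a check of the pairing, 1 gene and 0 members passed.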
